A study of Mus musculus with 23 samples.

Results

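The MHC class II genes described here are 7 genes of antigen presentation, chosen by name from the 54354 genes of the table. H2-Aa and H2-Ab1 encode the paired alpha and beta chains of the I-A molecule, and H2-Eb1 encodes the beta chain of I-E. Cd74 encodes the invariant chain, H2-DMa and H2-DMb1 encode the peptide-loading molecule H2-DM, and Ciita encodes the transcriptional co-activator CIITA. They were measured in sorted cells of mouse colon tumours by bulk RNA sequencing, in 12 libraries of GFP-negative and 11 of GFP-positive cells. The tumours came from organoids (cultured tumour epithelium) named AKP-tdT, which carry a tdTomato mark and a reporter at Basp1 joining eGFP to the diphtheria toxin receptor (DTR). The organoids were injected into the colon, and cells of the resulting primary tumours were separated by FACS according to GFP. The labels do not spell out AKP.

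Both groups carry the same genotype label, Basp1-GFP, and their labels differ in GFP alone. Cells of the injected line carry the same alleles in both groups. The reporter marks cells of the injected line, and the labels give no gate on tdTomato or on leukocytes. Cells of the host, without the reporter, would then be sorted as GFP-negative. Whether some also entered the GFP-positive population is not stated. Strain, age and diet of the mice are not stated in the labels, and the extraction protocol names organoids as the origin of the RNA while the design text names digested tumours. No label ties a library to an animal, so every p-value here rests on the spread between libraries, part of which may be technical.

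MHC class II molecules carry peptides from the endosomal pathway to the cell surface, where CD4+ T cells read them. Dendritic cells, macrophages and B cells make them constantly or on activation, and epithelial cells of the intestine can make them when exposed to interferon-gamma. CIITA binds no DNA itself. It is recruited to class II promoters by factors of the RFX, CREB and NF-Y families, which sit on the closely spaced X and Y boxes. The invariant chain blocks the peptide groove until proteases of the endosome, cathepsin S among them, trim it, and H2-DM then exchanges the last fragment for a peptide.

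H2-Aa (ENSMUSG00000036594) lies on chromosome 17 of mm10 from 34282744 to 34287823 on the minus strand, in GENCODE release M21. On the plus strand of the same stretch of chromosome 17 lie H2-Ab1 (ENSMUSG00000073421, 34257689 to 34269419), H2-Eb1 (ENSMUSG00000060586, 34305867 to 34316674), H2-DMa (ENSMUSG00000037649, 34119541 to 34139101) and H2-DMb1 (ENSMUSG00000079547, 34153072 to 34160230). Ciita (ENSMUSG00000022504) lies on the plus strand of chromosome 16 from 10480059 to 10528418. Cd74 is ENSMUSG00000024610.

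The promoters of 2 members are shown because they carry the paired letters that class II promoters are known for. The windows are RefSeq promoter sequences of GRCm38.p6, from 250 bases before to 50 bases after the start site, and 4 of the 7 members had one (H2-Aa, H2-Eb1, H2-DMa and H2-DMb1). Capitals mark a match to CTNGNAAC, a pattern within the X box, and to GATTGG, which holds the inverted CCAAT of the Y box. The runs read 5′ to 3′ on the gene's strand. H2-Aa lies at chr17:34287847-34287927 (minus strand) and H2-Eb1 at chr17:34305753-34305832 (plus strand).
H2-Aa: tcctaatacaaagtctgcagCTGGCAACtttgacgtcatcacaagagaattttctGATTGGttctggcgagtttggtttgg
H2-Eb1: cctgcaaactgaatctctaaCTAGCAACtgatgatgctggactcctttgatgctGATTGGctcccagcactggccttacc

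The first capital of the pair lies 84 bases before the start site in H2-Aa and 94 bases before it in H2-Eb1, and 27 and 26 bases separate the capitals. H2-DMb1 held the same pair 27 bases apart, in a stretch that GENCODE places within an exon and that is not printed. Neither of the 2 windows of H2-DMa held the pair. The patterns were chosen after these windows had been read, were searched on both strands and share no bases in these matches. CTNGNAAC occurred in 13.2% of all 32851 windows and GATTGG in 16.1%. The pair, on 1 strand with CTNGNAAC first and at most 50 bases between, occurred in 61 windows (0.186%), among them 3 of the 4 members with a window and H2-Ob. A match is a description of the letters, not evidence of binding.

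The members were sparse in these libraries, and depth set what could be seen. Totals ran from 25458 to 4238877 counts per library, with medians of 144334 in GFP-negative and 1418140 in GFP-positive libraries, and 4 libraries held under 100000. The numbers in the library names fell into 2 runs, called here library set 1 (6 GFP-negative libraries, 5 GFP-positive ones) and library set 2 (6 of each), and what the runs stand for is not stated. Epcam, the epithelial adhesion protein, had counts in all 23 libraries, and 8 epithelial markers summed to 2285 to 6498 CPM (counts per 1000000 counts of the library). Basp1 itself stood at 33.4 ± 27.0 CPM (SD, n = 12) without GFP and at 57.8 ± 32.9 CPM (SD, n = 11) with it, which did not pass the test (edgeR adjusted p = 0.997).

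A single library stood apart. GFP-positive 3, of library set 1, held between 49.0% (H2-Ab1) and 71.4% (H2-DMa) of all counts of each member over the 23 libraries, with the exception of Ciita, of which it had 0 counts. Its 7 members together had 1945 CPM, against 20.99 to 133.5 CPM in the other 10 GFP-positive libraries. The same library held 28050 CPM of 12 macrophage and monocyte markers, against 171 to 1080 CPM in the other GFP-positive libraries. Its epithelial markers summed to 2709 CPM, below the other GFP-positive libraries of set 1 (3960 to 5785 CPM) and above GFP-positive 6 of set 2 (2285 CPM). Results over all libraries and over library set 1 are therefore given with and without it.

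**Figure D1:**
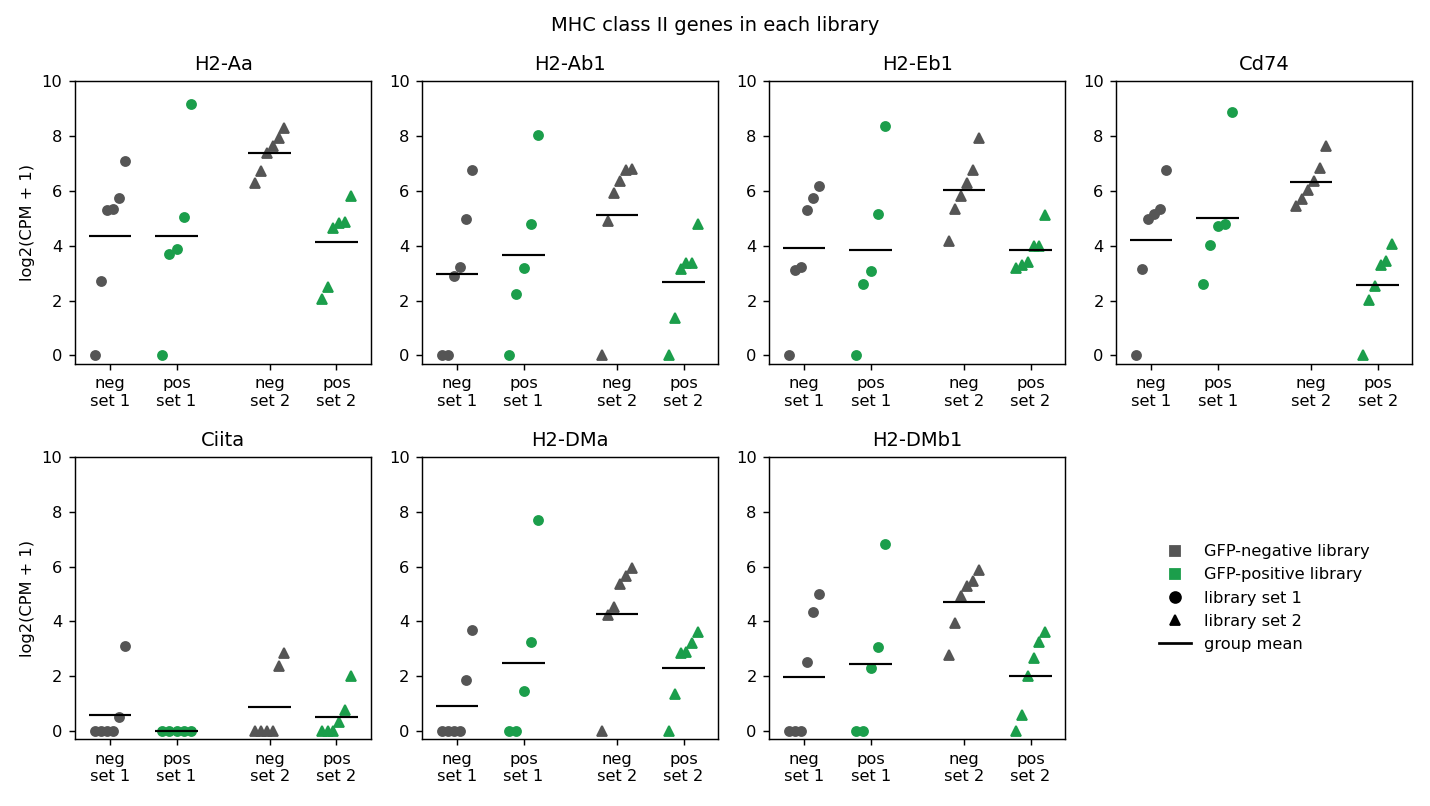
Level of each of the 7 genes in every library as log2(CPM + 1), with GFP-negative libraries in grey, GFP-positive libraries in green, circles for library set 1, triangles for library set 2 and a bar at each group mean. In set 2 the H2-Aa and Cd74 levels of the 2 populations do not overlap, and in set 1 the single high green point, up to 576 CPM for H2-Aa, is GFP-positive 3.

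Over all 23 libraries, edgeR called none of the members without a block, while DESeq2 called Cd74. The I-A alpha chain gene H2-Aa ran from 0 through a median of 91.5 to 312 CPM in GFP-negative libraries (n = 12). In GFP-positive libraries it ran from 0 through a median of 24.1 to 576 CPM (n = 11). The medians lay apart, but the ranges overlapped from end to end because the highest GFP-positive library was GFP-positive 3 and each group had 1 library at 0. The log2 fold change, GFP-positive minus GFP-negative, was -0.54 (SE 0.83, edgeR adjusted p = 0.997).

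H2-Eb1, the I-E beta chain gene, had a median of 45.6 CPM in GFP-negative libraries (0 to 244) and 9.57 CPM in GFP-positive libraries (0 to 330), with a log2 fold change of -0.28 (SE 0.77, edgeR adjusted p = 0.997). Cd74, the invariant chain gene, had a median of 47.4 CPM in GFP-negative libraries (0 to 196) and 9.99 CPM in GFP-positive libraries (0 to 462), with a log2 fold change of -0.125 (SE 0.88, edgeR adjusted p = 0.997). H2-Ab1, Ciita, H2-DMa and H2-DMb1 lay below the expression filter in this fit, so 3 of the 7 members were tested in it. With a minimum of 10 counts over all libraries in place of that filter, all 7 were tested and edgeR called 0 (1 at an unadjusted p under 0.05, Ciita), against 0.00592% of 16894 genes called lower. Under the filter by group edgeR called 0.0151% of 6621 genes lower, with 328 at an unadjusted p under 0.05. DESeq2 called Cd74 alone of the 3 tested members, at -2.45 (adjusted p = 0.00383) against 0.347% of genes called lower, after replacing the 979 counts of GFP-positive 3 by 59 as an outlier.

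Without GFP-positive 3, all 7 members had a negative fold change, and H2-Eb1 and Cd74 passed the test. With the minimum of 10 counts, H2-Eb1 fell, at a log2 fold change of -1.91 (SE 0.47, edgeR adjusted p = 0.0399). Cd74 fell too, at -2.44 (SE 0.52, edgeR adjusted p = 0.0287). In that fit 0.591% of 16586 genes were called lower. H2-Aa had -2.29 (SE 0.63, adjusted p = 0.121), H2-Ab1 -2.19 (SE 0.65, adjusted p = 0.137) and H2-DMb1 -2.02 (SE 0.61, adjusted p = 0.116) in edgeR. H2-DMa had -1.75 (SE 0.62, edgeR adjusted p = 0.209), where it had 0.69 (SE 0.96) with the library kept. Under the filter by group, leaving the library out gave -2.05 for H2-Eb1, which then missed the threshold (edgeR adjusted p = 0.0627), and -2.60 for Cd74, which passed (adjusted p = 0.0320), against 0.227% of genes called lower.

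A permutation test of the mean log2(CPM + 1) of each member, with 100000 resamples, two-sided and with no adjustment, gave a similar picture of that single library. Over 12 and 11 libraries the permutation p was 0.112 for H2-Aa, 0.392 for H2-Ab1, 0.202 for H2-Eb1, 0.0803 for Cd74, 0.281 for Ciita, 0.834 for H2-DMa and 0.222 for H2-DMb1. Without GFP-positive 3 the permutation p was 0.0319 for H2-Aa (a mean difference of -2.13) and 0.0123 for Cd74 (also -2.13). For H2-Ab1, H2-Eb1, Ciita, H2-DMa and H2-DMb1 it was 0.174, 0.0557, 0.333, 0.411 and 0.0687.

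Within library set 2, where no library stood apart in this way, the chain genes and the invariant chain gene were far lower in GFP-positive cells. H2-Aa ran from 77.5 through a median of 180 to 312 CPM in GFP-negative libraries (n = 6) and from 3.19 through a median of 25.9 to 55.7 CPM in GFP-positive libraries (n = 6). Each GFP-positive library lay below each GFP-negative library. Its means were 183 ± 87.1 and 23.9 ± 19.2 CPM (SD, n = 6 each), and the log2 fold change was -2.88 (SE 0.51, edgeR adjusted p = 0.00378).

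Cd74 ran from 43.1 through a median of 71.9 to 196 CPM in GFP-negative libraries and from 0 through a median of 6.81 to 15.5 CPM in GFP-positive libraries. These groups did not overlap either, and among the 6952 genes tested such a separation, with the GFP-positive libraries lower, was seen for 0.834%. Cd74 fell, with a log2 fold change of -3.48 (SE 0.54, edgeR adjusted p = 0.000516).

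H2-Eb1 ran from 17.2 through a median of 65.5 to 244 CPM in GFP-negative libraries and from 8.16 through a median of 12.2 to 33.8 CPM in GFP-positive libraries. The overlap came from GFP-negative 10, with 2 counts at 17.2 CPM, and GFP-positive 6, with 11 counts at 33.8 CPM. H2-Eb1 fell, with a log2 fold change of -2.56 (SE 0.52, edgeR adjusted p = 0.00696).

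H2-Ab1, the partner of H2-Aa in the I-A molecule, ran from 0 through a median of 69.4 to 109 CPM in GFP-negative libraries and from 0 through a median of 8.58 to 26.8 CPM in GFP-positive libraries. The groups overlapped because GFP-negative 10 had 0 counts, where 3 counts would stand for 25.8 CPM; the other 5 GFP-negative libraries lay above all GFP-positive libraries. H2-Ab1 fell, with a log2 fold change of -2.89 (SE 0.69, edgeR adjusted p = 0.0373). That call was lost, at adjusted p values up to 0.121, in 9 of the 12 fits that left out 1 library, and held only without GFP-negative 10, GFP-positive 9 or GFP-positive 11. It was also lost with upper-quartile scaling (edgeR adjusted p = 0.0566, with 1.15% of genes called lower) and without the library under 100000 counts (adjusted p = 0.0523, 1.38%), and passed in DESeq2 (adjusted p = 0.00290, 1.99%). H2-Aa, H2-Eb1 and Cd74 passed in these fits and in 12 of 12 that left out 1 library.

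The H2-DM genes lay lower in level, and their differences did not pass. H2-DMa ran from 0 through a median of 30.8 to 60.2 CPM in GFP-negative and from 0 through a median of 6.25 to 11.2 CPM in GFP-positive libraries of set 2. H2-DMb1 ran from 5.80 through a median of 33.8 to 57.5 CPM in GFP-negative and from 0 through a median of 4.19 to 11.2 CPM in GFP-positive libraries. For each of them 5 of 6 GFP-negative libraries lay above all GFP-positive libraries. With the minimum of 10 counts in place of the filter, H2-DMa had -2.31 (SE 0.70, edgeR adjusted p = 0.0703) and H2-DMb1 had -2.41 (SE 0.76, adjusted p = 0.101).

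In that fit of set 2, which tested all 7 members, 4 were called lower (H2-Aa, H2-Ab1, H2-Eb1 and Cd74), against 1.55% of all 14614 genes. The median of the 7 was -2.45, against 0.11 over all genes tested. The filter by group had tested 4 members and edgeR had called 1.24% of genes lower under it, but H2-Ab1 and Cd74 had each passed that filter with 1 GFP-positive library above its limit, so their testing leaned on the GFP-negative group.

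Ciita was near the limit of detection everywhere. It had 15 counts over the 23 libraries, 12 of them in GFP-negative and 3 in GFP-positive libraries, and 0 counts in 16 libraries. GFP-negative 9 had 7 counts (6.23 CPM), GFP-negative 7 had 3, and GFP-negative 2, GFP-negative 6, GFP-positive 6, GFP-positive 8 and GFP-positive 11 had 1 each. GFP-positive 3, with 4119 counts of the other members, had 0 counts of Ciita, which allows a level of up to 1.42 CPM there by counting error alone. The fitted difference of Ciita over all libraries was -2.47 (SE 0.94, edgeR unadjusted p = 0.0110, adjusted p = 0.379), and in set 2 it was -2.18 (SE 1.26, adjusted p = 0.581). No change in the activator itself was detectable at this depth.

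**Figure D2:**
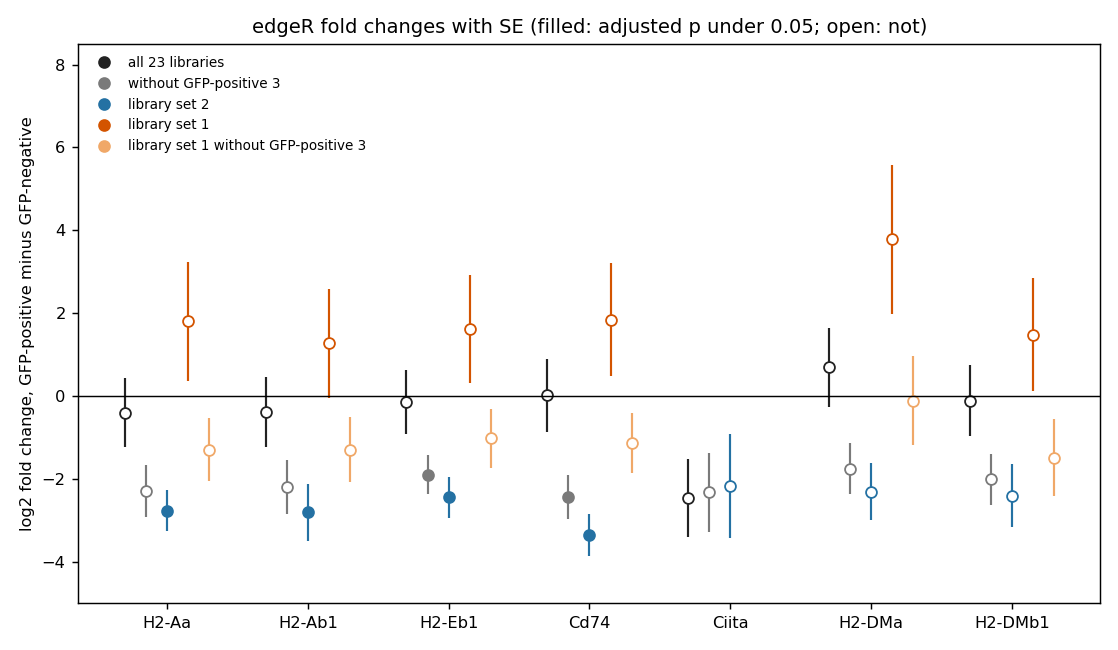
Fitted log2 fold changes (GFP-positive minus GFP-negative) with SE for the 7 genes in 5 sets of libraries, from fits with a minimum of 10 counts; filled points have an edgeR adjusted p under 0.05. The values of library set 1 are positive with GFP-positive 3 (H2-Aa 1.80) and negative without it (H2-Aa -1.30), and Ciita could not be fitted in set 1.

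In library set 1 the GFP-positive levels were set by the library that stood apart. H2-Aa had 31.8, 12.1, 576, 0 and 13.8 CPM in GFP-positive 1 to 5. In the 6 GFP-negative libraries of the set it ran from 0 through a median of 38.7 to 134 CPM. Cd74 had 25.0, 15.3, 462, 26.9 and 5.01 CPM in GFP-positive 1 to 5, where the value of GFP-positive 4 stands for 1 count, and ran from 0 through a median of 32.6 to 106 CPM in GFP-negative libraries. Apart from GFP-positive 3, the GFP-positive libraries lay inside the GFP-negative range for both genes.

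The log2 fold changes in set 1 were 1.71 for H2-Aa (SE 1.45, edgeR adjusted p = 0.942), 1.57 for H2-Eb1 (SE 1.34, adjusted p = 0.942) and 1.77 for Cd74 (SE 1.41, adjusted p = 0.934). None of the 5256 genes tested in this set was called by edgeR (284 at an unadjusted p under 0.05, and 6 by DESeq2). Without GFP-positive 3 and with the minimum of 10 counts, the 6 members that could be tested all had negative values, with a median of -1.22 against 0.11 over all genes. H2-Aa then had -1.30 (SE 0.77, edgeR adjusted p = 0.893), H2-Eb1 -1.02 (adjusted p = 0.971) and Cd74 -1.15 (adjusted p = 0.921), against 0.0136% of 14699 genes called lower, so no change was detectable in set 1 either way.

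Whether the difference between the populations itself differed between the library sets was tested as an interaction. It was -4.61 for H2-Aa (edgeR unadjusted p = 0.00607, adjusted p = 0.601), -4.13 for H2-Eb1 and -5.26 for Cd74 (unadjusted p = 0.00196, adjusted p = 0.469), and 0 of 6621 genes were called (424 at an unadjusted p under 0.05). Without GFP-positive 3, and with the minimum of 10 counts, it was -1.53 for H2-Aa (edgeR adjusted p = 0.806), -1.50 for H2-Eb1 (adjusted p = 0.687) and -2.25 for Cd74 (adjusted p = 0.453).

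Library names begin with an identifier, whose meaning the labels do not state, and libraries of the same identifier were set side by side. The exception is 8045-8050, the name of a GFP-positive library, which was set beside the mean of the GFP-negative libraries named 8045 and 8050. Of 10 identifiers with both populations, the GFP-positive one had less class II RNA in 9, counted as the sum of the 7 members. The ratio of GFP-negative to GFP-positive CPM in these 9 ran from 2.77 in 7421 to 11.9 in 7907. In the remaining identifier, 7789-7795, the sum was 37.8 CPM in the GFP-negative library and 1945 CPM in GFP-positive 3. So the population with the highest class II level of all and the GFP-negative library with the lowest carried the same identifier.

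By gene, the GFP-positive population was lower in 9 of 10 identifiers for H2-Eb1 and Cd74, 8 for H2-Aa, 7 for H2-Ab1, 6 for H2-DMa and H2-DMb1 and 4 for Ciita. A lower GFP-positive level in at least 9 of 10 identifiers was seen for 0.426% of the 16894 genes with 10 counts or more. Without 8045-8050 the sum was lower in 8 of 9 identifiers, as were H2-Eb1 and Cd74, and H2-Aa was lower in 7 of 9. Several of these pairs rest on few counts. In 8045-8050, whose libraries held 25458 to 57728 counts, the Cd74 value of 26.9 CPM in the GFP-positive library is 1 count, and in 7421 H2-Aa was 0 in the GFP-negative and 13.8 CPM in the GFP-positive library. Within set 2, H2-Aa, H2-Eb1 and Cd74 were lower in 6 of 6 identifiers, a share reached by 1.74% of the 14614 genes tested with a minimum of 10 counts.

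**Figure D3:**
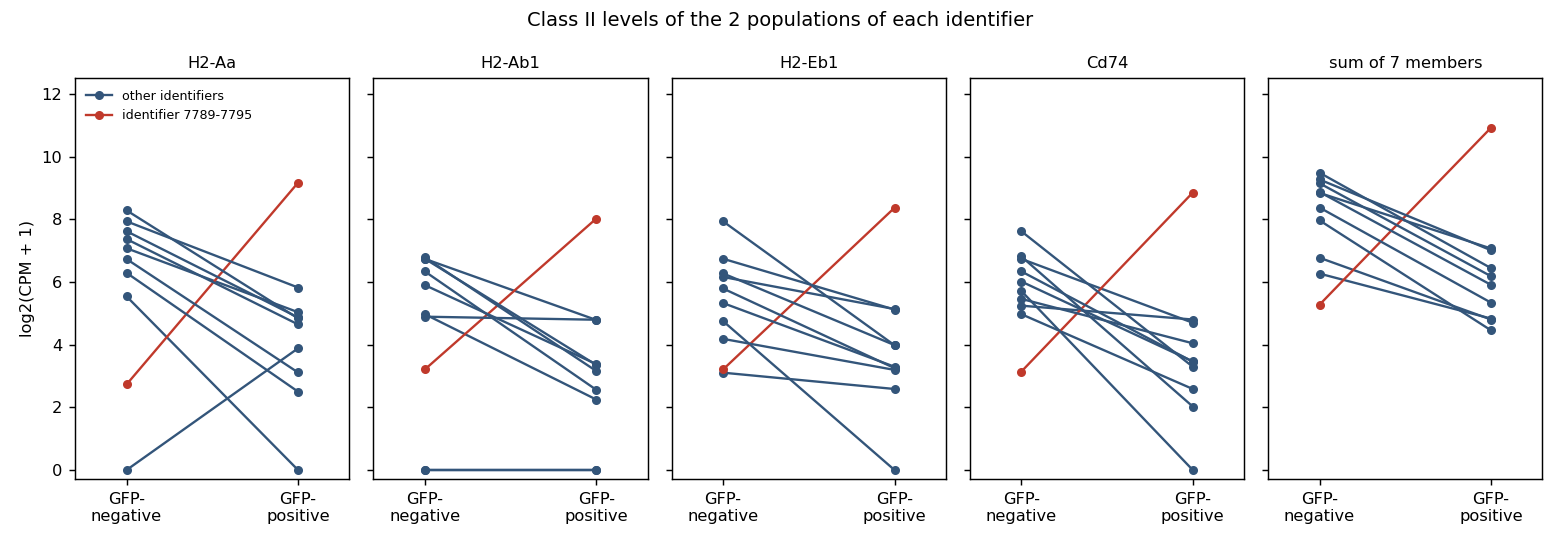
Levels of 4 class II genes and of the sum of all 7 in the GFP-negative and GFP-positive population of each of 10 identifiers, as log2(CPM + 1), with libraries of a population averaged within an identifier and those named 8045 and 8050 averaged in 8045-8050. The sum falls in 9 identifiers, drawn in blue, and rises from 37.8 to 1945 CPM in 7789-7795, drawn in red.

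With the identifier as a block, the calls of the members turned on GFP-positive 3 and, with it kept, on the 3 libraries of 8045-8050. Only identifiers with both populations entered these fits, so GFP-negative 3 was in none of them. Leaving out GFP-positive 3 also left out GFP-negative 6, the other library of 7789-7795. Under the filter by group edgeR called 0 of the 3 tested members with all identifiers (3 at an unadjusted p under 0.05), against 0.03% of 6673 genes called lower, and 3 of 3 without GFP-positive 3, against 1.25% of 6345. With the minimum of 10 counts and GFP-positive 3 kept, edgeR called 2 of 7 lower against 0.403% of genes, H2-Ab1 at -2.18 (adjusted p = 0.0466) and H2-Eb1 at -1.57 (adjusted p = 0.0460). Without the libraries of 8045-8050 edgeR called 0 of 7 (1 at an unadjusted p under 0.05), against 0.0772% of genes, and both had an adjusted p of 0.898. Without GFP-positive 3 edgeR called 6 of 7 lower, all but Ciita, against 1.64% of 16244 genes. Among these, H2-DMa had -2.27 (adjusted p = 0.0470) and H2-DMb1 -2.61 (adjusted p = 0.0265). Without the libraries of 8045-8050 as well, the same 6 were called against 1.71% of genes. DESeq2 was not run with the block.

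Per kilobase of exon, H2-Aa was the most abundant member in 17 of 23 libraries, Ciita left aside. In the GFP-negative libraries of set 2 the median levels were 160 CPM per kilobase for H2-Aa, 57.3 for H2-Ab1, 50.8 for Cd74, 39.3 for H2-Eb1, 24.1 for H2-DMb1 and 11.6 for H2-DMa. In the GFP-positive libraries they were 22.9 for H2-Aa, 7.30 for H2-Eb1, 7.08 for H2-Ab1, 4.81 for Cd74, 2.98 for H2-DMb1 and 2.34 for H2-DMa. The libraries' ranges of neighbours in these orders overlapped in both populations. H2-Aa stood first and the H2-DM genes last of the 6 in both, while the order of H2-Ab1, Cd74 and H2-Eb1 differed within that overlap.

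The other genes of the pathway are given list by list. Besides the members, 5 further class II genes of the same locus were in the table, and all were near 0: H2-DMb2 and H2-Oa had 13 counts each over all libraries, H2-Ob had 5, and H2-Eb2 and H2-Ea had 0. H2-Oa and H2-Ob encode a molecule that restrains H2-DM. H2-Oa, named for its mean level, had 7 counts in a single GFP-negative library of set 2 and 0 in the 6 GFP-positive libraries there. Salmon shares reads between near-identical genes, so the counts of H2-DMb1 against H2-DMb2, and of H2-Eb1 against H2-Eb2, are estimates.

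The 7 genes of the factors that bind class II promoters (Rfx5, Rfxap, Rfxank, Nfya, Nfyb, Nfyc and Creb1) were all tested in set 2 with the minimum of 10 counts. edgeR called 0 of them, with 0 at an unadjusted p under 0.05, and DESeq2 called 0 of the 3 that passed the filter by group. Nfyb, a subunit of NF-Y and the most abundant of them, had medians of 43.7 and 54.4 CPM in GFP-negative and GFP-positive libraries of set 2 and a log2 fold change of 0.27 (SE 0.45, edgeR adjusted p = 0.945). Of 10 genes that lead from interferon-gamma to Ciita, 8 passed the filter by group in set 2; edgeR called 0, with 0 at an unadjusted p under 0.05, and DESeq2 called 0. Jak1, the receptor kinase and the most abundant of these, had medians of 96.5 and 79.4 CPM and a log2 fold change of -0.67 (SE 0.36, edgeR adjusted p = 0.804).

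Among 7 endosomal proteases and reductases, all tested in set 2, Ctss was called lower, against 1.24% of all 6952 genes. Ctss encodes cathepsin S, the protease that trims the invariant chain. It ran from 402 through a median of 524 to 1136 CPM in GFP-negative libraries and from 29.2 through a median of 120 to 150 CPM in GFP-positive libraries. These did not overlap, as for 0.834% of the genes tested. Ctss fell, with a log2 fold change of -2.57 (SE 0.40, edgeR adjusted p = 0.00198). The fold changes of the other 6 were negative too, with a list median of -0.72 against 0.07 over all genes, and none of the 6 passed.

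Among 7 genes of co-stimulation and surface turnover, 3 passed the filter by group in set 2 and edgeR called 0 of them (2 at an unadjusted p under 0.05, and 0 by DESeq2). Icam1, an adhesion molecule of the contact with T cells and the most abundant of these, had medians of 82.1 and 18.1 CPM in GFP-negative and GFP-positive libraries and a log2 fold change of -2.09 (SE 0.84, edgeR adjusted p = 0.599). With the minimum of 10 counts, 5 of 6 tested had negative values and 5 had an unadjusted p under 0.05, with a median of -2.33 against 0.11 over all genes. In that edgeR fit 2 of the 6 were called lower, against 1.55% of all 14614 genes. They were the B7 ligands Cd80 and Cd86, which are named here after their values were seen. Cd86 had 55 counts in GFP-negative and 14 in GFP-positive libraries of set 2 (-3.81, SE 0.88, edgeR adjusted p = 0.00646). Cd80 had 11 and 0 counts. It reached the minimum of 10 counts through the GFP-negative libraries alone, so its call as lower is no separate support.

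Macrophage markers moved with the class II genes from library to library. The 12 markers (Csf1r, Adgre1, C1qa, C1qb, C1qc, Cd68, Lyz2, Tyrobp, Fcer1g, Laptm5, Mrc1 and Cd14) summed to 1843 to 6833 CPM in the GFP-negative libraries of set 2 and to 171 to 1030 CPM in the GFP-positive ones. In set 2, 8 of the 12 were called lower with the minimum of 10 counts, against 1.55% of all 14614 genes. The median of the 12 was -3.25. In 9 of 10 identifiers their sum was lower with GFP than without, and 7789-7795 was again the exception. Class II counts per macrophage-marker count had a median of 0.103 in GFP-negative libraries (0.0442 to 0.309, n = 12) and of 0.124 in GFP-positive libraries (0.0694 to 0.242, n = 11). GFP-positive 3, at 0.0694, had the lowest ratio of its group. Within set 2 the medians were 0.109 and 0.145, and the ratios of the pooled counts were 0.107 and 0.179. The ratio leans on the most abundant markers. Of the marker counts in set 2, Lyz2 held 9079 of 13612 in GFP-negative and 1564 of 3357 in GFP-positive libraries. Cd14 held 1438 and 1092. In set 2 the summed class II level ran from 249.5 to 718 CPM in GFP-negative and from 20.99 to 128 CPM in GFP-positive libraries. Its ratio to the marker counts ran from 0.0442 to 0.309 and from 0.0836 to 0.242. The lowest and the highest GFP-negative ratio rest on 29 and 58 class II counts. The bulk libraries cannot tell fewer cells of a type from less RNA per cell, and the part of these markers in the class II difference was not tested.

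**Figure D4:**
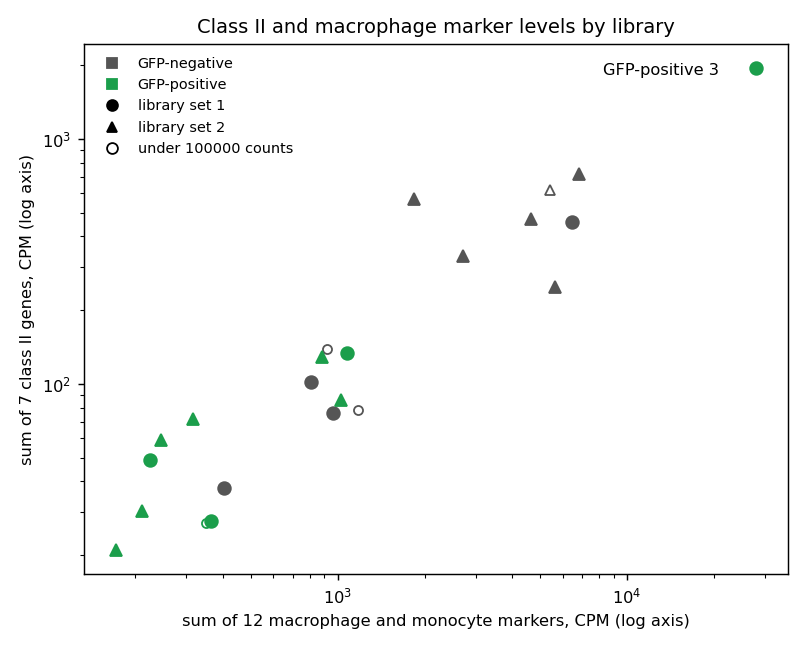
Sum of the 7 class II genes against the sum of 12 macrophage and monocyte markers, both in CPM on log axes, with 1 point per library, colours for the populations, shapes for the library sets and open points for libraries under 100000 counts. The GFP-positive libraries and 5 GFP-negative libraries of set 1 mix at the lower left, the GFP-negative libraries of set 2 stand at 1843 CPM of macrophage markers or more, and GFP-positive 3 stands alone at 28050 and 1945 CPM.

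Markers of the other professional presenting cells had few counts or none. The B cell markers Ms4a1, Cd79a and Pax5 and the plasma cell gene Mzb1 had 0 counts in all 23 libraries. Cd79b had 5 counts without GFP and 18 with it (15 of them in GFP-positive 3), and Jchain had 10 and 57 (3 in that library). Of 10 dendritic cell markers, Clec9a had 0 counts, Flt3 had 2 counts, and the most abundant was Ccr7, with 33 counts without GFP and 91 with it in 11 libraries. Itgax had 19 and 28 counts (19 of the latter in GFP-positive 3) and Zbtb46 had 17 and 31 (0 in that library). These are raw counts, from 6081198 counts in all without GFP and 18828534 with it. The 10 together made up 13.8 CPM of the pooled counts of GFP-negative libraries and 10.04 CPM of those of GFP-positive libraries (8.68 CPM without GFP-positive 3). In set 2 they made up 17.4 and 5.21 CPM. Their median per library was 6.22 CPM in GFP-negative and 7.06 CPM in GFP-positive libraries, and 8.37 and 4.81 CPM in set 2. With the minimum of 10 counts 4 of the dendritic cell markers were tested in set 2, with a median of -3.12, and edgeR called 0. Zbtb46, Itgax and Ccl22 were lower at an unadjusted p under 0.05 in edgeR. Ccr7 went the other way, with a positive fold change and with 10 counts without GFP and 28 with it in set 2. The 3 lower genes reached the minimum mostly through the GFP-negative libraries. Zbtb46 had 17 counts, all in 1 library, against 1 with GFP, Itgax had 13 and 5, and Ccl22 had 9 and 2. DESeq2, run under the filter by group, tested none of them. Cd3e, a T cell marker, had 0 counts in all libraries. Of 8 T and NK cell markers, 1 passed the filter by group in each fit, and edgeR did not call it. Its log2 fold change was positive, at 0.69 over all libraries, 0.39 in set 2 and 0.99 in set 1. In set 1 it had an unadjusted p under 0.05 in edgeR. Ptprc, the pan-leukocyte gene, made up 26.8 CPM of the pooled counts of GFP-negative libraries and 34.5 CPM of those of GFP-positive libraries, of which GFP-positive 3 held 482 of 649 counts. Without that library the GFP-positive level was 9.99 CPM, and in set 2 the levels were 32.5 and 9.96 CPM. The part of the dendritic and leukocyte markers in the class II difference was not tested. The 7 fibroblast markers also summed to less in GFP-positive libraries of set 2, at 161 to 947 CPM against 1135 to 8552 CPM. At the minimum of 10 counts 3 of the 7 were called lower, against 1.55% of all 14614 genes, and their part was not tested either. In GFP-positive 3 fibroblast markers stood at 192 CPM.

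The genes whose levels ran most closely with the members were looked for over the 19 libraries of at least 100000 counts, among 9230 genes, by Pearson's r of log2 CPM with the mean of the members. The highest r was 0.97, for Lcp1, which encodes the actin-bundling protein L-plastin of leukocytes. It was followed by Ms4a6d (r = 0.92), the lysozyme gene Lyz2 (0.91), Cd52 (0.90), the properdin gene Cfp (0.90), C1qa (0.90), Ms4a6c (0.90), Laptm5 (0.89), Cd14 (0.89) and C3ar1, the receptor of complement C3a (0.89). C1qa, Laptm5, Cd14 and Lyz2 are among the 12 macrophage markers above. Without GFP-positive 3 the r of Lcp1 was 0.96 and it still ranked first among 18 libraries, while Ncam1, Olfml2b, Tmem45a and Lum, at ranks 164, 340, 197 and 309 with that library, entered the first 10. Lum is among the fibroblast markers above. Col3a1 and Col1a2, of the same list, ranked 14 and 20 without GFP-positive 3 (r = 0.85 and 0.84). These values are a description, since the libraries differ in depth and in their mixture of markers.

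Among themselves, the members' levels went together to different degrees. Over the same 19 libraries the pairs among the 6 members other than Ciita had r from 0.51 to 0.86, and from 0.37 to 0.83 without GFP-positive 3. The highest was that of H2-Aa with H2-Eb1 in both cases. The lowest were those of H2-Ab1 with H2-DMa (0.54, or 0.39 without that library) and with H2-DMb1 (0.51, or 0.37). H2-Aa and H2-Ab1, which encode the chains of I-A, had r = 0.69 (0.61 without it), and H2-DMa and H2-DMb1 had r = 0.72 (0.60). Ciita had r between -0.09 and 0.33 with the other 6, and between -0.02 and 0.44 without GFP-positive 3, which at 15 counts in all is no measure of its relation to them.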

How the data were processed

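The authors deposited expected counts per gene and library, given as whole numbers; Salmon 1.3.0 and mm10 are named in the submitters' processing notes. The transcript annotation is not given in the sources used here. Per the labels' protocols, libraries were poly(A)-selected with a directional kit. All value columns matched a library name; 1243 genes had no symbol.

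Populations were compared by robust quasi-likelihood fits (edgeR 4.0.16, R 4.3.3) after filterByExpr and TMM scaling, with Benjamini-Hochberg adjustment at 0.05 across all genes tested, over all libraries and within each library set, refitted with a minimum of 10 counts in all so that sparse members were tested. DESeq2 1.42.0 was an alternative. CPM are counts per 1000000 of the library total. Library depths ranged from 25458 to 4238877 counts; floors of 3 counts cover counting error only. Gene lengths are unions of GENCODE M21 exons.

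The members and lists were chosen with earlier results of these data known. Members were always named, and of each pathway list the called members (at most 3) or the most abundant one. Libraries of 1 population that shared an identifier were averaged when identifiers were set side by side, and the GFP-negative libraries named 8045 and 8050 were joined under the GFP-positive name 8045-8050, there and in the block. No 2 libraries of a group agreed within sampling noise (lowest chi-square per degree of freedom 2.66). On simulated counts for library set 2, 68% of 50 genes with a log2 change of -2 and 96% with -4 were called. The pairs of promoter letters, the fits that join the minimum of 10 counts with another choice, the fits of a library set without libraries under 100000 counts, and the permutation tests without GFP-positive 3 were added after the data had been seen.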

Additional observations from a re-analysis of the deposited data

Results flagged for a closer look

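Within each library set, 28 groups of 5 or 6 libraries were checked for a highest or lowest library far from its nearest neighbour, of which chance gives about 1 in 20. There were 13, all of them highest libraries. The members' levels went together and the same library was found for several of them. The 13 are therefore not independent and cannot be set against that rate.

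GFP-positive 3 stood far above the other 4 GFP-positive libraries of set 1 for the 6 members other than Ciita. It had 576 CPM of H2-Aa (next 31.8), 260 CPM of H2-Ab1 (next 26.7), 330 CPM of H2-Eb1 (next 34.2), 462 CPM of Cd74 (next 26.9), 205 CPM of H2-DMa (next 8.49) and 112 CPM of H2-DMb1 (next 7.31). In the same library macrophage markers summed to 28050 CPM.

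GFP-negative 1 was the highest GFP-negative library of set 1 for H2-Ab1 at 106 CPM (next 30.5), for Cd74 at 106 CPM (next 39.3) and for H2-DMa at 11.8 CPM (next 2.60). Its macrophage markers summed to 6449 CPM, against 404 to 1178 CPM in the other GFP-negative libraries of the set.

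Among GFP-positive libraries of set 2, GFP-positive 11 was high for H2-Ab1 at 26.8 CPM (next 9.42) and GFP-positive 6 for H2-Eb1 at 33.8 CPM (next 14.9). GFP-positive 6 for Ciita at 3.07 CPM (next 0.705) and GFP-negative 2 for Ciita at 7.62 CPM (next 0.434) rest on 1 count each.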

How the results depend on the processing

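The call of H2-Aa, H2-Eb1 and Cd74 in library set 2 held under each alternative run there, DESeq2, upper-quartile scaling, the minimum of 10 counts, the identifier block, and the fit without the library under 100000 counts included. H2-Ab1 was lost with upper-quartile scaling and without that library (edgeR adjusted p = 0.0566 and 0.0523); leaving out 1 library gave -3.50 to -2.64 for it.

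Counts of called genes over all libraries were 1 as fitted, 24 with DESeq2, 0 without libraries under 100000 counts at a minimum of 10 counts, and 109 without GFP-positive 3 at that minimum. Leaving out 1 library gave 0 to 16: 16 without GFP-positive 3, 3 without GFP-positive 1, and 0 without GFP-negative 1, 2, 5, 6, 7, 8, 9, 10, 11 or 12. In set 2 the count was 89, with 142 under DESeq2, 234 at the minimum of 10 counts, and 65 to 118 without 1 library. In set 1 it was 0, with 6 under DESeq2, 2 without GFP-positive 3 at the minimum, and 0 to 6 without 1 library (1 without GFP-negative 1, 6 without GFP-negative 6, 1 without GFP-positive 3). The interaction called 2 genes at the minimum of 10 counts.

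Title numbers did not pair the libraries (r of their deviations from -0.17 to 0.40, 2 of 11 over 0.1), nor did identifiers pass the same criterion (-0.22 to 0.40 over 12 pairs, 5 over 0.1). In fits with the identifier as a block, GFP-negative 6 was left out together with GFP-positive 3, whose identifier it shares. The replicate block by identifier gave 2 called genes over all libraries, 81 with the minimum of 10 counts, 89 without GFP-positive 3, 319 with both, and 140 in set 2. Without the libraries of 8045-8050, at the minimum of 10 counts, it gave 14 with GFP-positive 3 and 343 without it. Over all libraries it gave -2.28 for H2-Aa (edgeR adjusted p = 0.986), and -2.73 (adjusted p = 1.66e-07) without GFP-positive 3. Cd74 had -2.52 (adjusted p = 0.986) and -3.03 (adjusted p = 1.09e-06), and H2-Eb1 -1.69 (adjusted p = 0.999) and -2.18 (adjusted p = 0.000515). A block by title number gave 0 called genes.

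Signs turned over all libraries for H2-Eb1 without libraries under 100000 counts (0.0371, or 0.12 at the minimum of 10 counts) and without GFP-negative 12 (0.0019). Cd74 turned to 0.0194 at the minimum, and to 0.0014, 0.0146, 0.0742, 0.0057 and 0.0155 without GFP-positive 5, GFP-negative 7, GFP-negative 11, GFP-positive 6 and GFP-positive 9. Leaving out 1 library gave -2.43 to -0.24 for H2-Aa, -2.05 to 0.0019 for H2-Eb1 and -2.60 to 0.0742 for Cd74. In set 1, leaving out 1 library gave -1.41 to 3.36 for H2-Aa; H2-Aa turned to -1.41 without GFP-positive 3 (-1.30 at the minimum), H2-Eb1 to -1.02 and Cd74 to -1.15. In the permutation tests, H2-Aa and Cd74 (-2.13 each) passed only without GFP-positive 3. The cause was not tested.

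Depth limits the sparse members: in GFP-negative 12, 1 count stands for 14.4 CPM, so levels of H2-DMa and Ciita there could not be told from 0.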
